A study of Rattus norvegicus with 9 samples.

Results

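The miRNAs of the miR-15 and miR-16 family, with the miR-195 and miR-497 cluster, were measured by small RNA sequencing in rat serum, and 7 mature miRNAs were chosen by name out of the 567 in the count matrix. They are miR-16-5p, miR-15a-5p, both arms of miR-15b, both arms of miR-195, and miR-497-5p. All 7 were found and all 7 passed the filter on low counts. miR-195-3p, with 0 counts in LPD, passed it through EPD and Control alone. The study gave rotenone, an inhibitor of mitochondrial complex I, to model stages of Parkinson's disease. The 3 groups were LPD (the late, terminal stage, more than 40 days of rotenone at a daily 2 mg per kg), EPD (the early stage, at least 10 days at the same daily dose) and Control. Each group had 3 libraries, all from wild-type adult male Wistar rats, with rotenone given into the peritoneum. The sample labels word the treatment alike for all 9 libraries, and they do not state what the Control rats received or whether each library came from 1 animal.

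These miRNAs belong to a family that binds target messenger RNAs through a shared seed near the 5′ end. Known targets in human and mouse cells include Bcl2, which protects cells from apoptosis, and cyclins that drive entry into the cell cycle. miR-15a and miR-16 act as tumour suppressors in human lymphocytes, and miR-195 and miR-497 restrain the division of heart and skeletal muscle cells in the mouse. miR-16 is abundant in red blood cells and is often used as a reference miRNA in serum. Serum collects RNA from many cell types, so fewer releasing cells and less RNA released per cell cannot be told apart.

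The mature sequences, read from RefSeq annotation of the GRCr8 assembly, show what the family shares and where its members differ. The capitals mark the seed, bases 2 to 8 from the 5′ end. RefSeq entries were matched for 6 of the 7 members. The first 4 lines are the main arms and the last 2 are the opposite arms.
miR-16-5p: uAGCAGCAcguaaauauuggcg
miR-15b-5p: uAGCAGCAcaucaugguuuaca
miR-195-5p: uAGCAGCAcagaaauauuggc
miR-497-5p: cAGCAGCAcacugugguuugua
miR-15b-3p: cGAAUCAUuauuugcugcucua
miR-195-3p: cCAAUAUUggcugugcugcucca

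The 4 main arms carry 1 seed, AGCAGCA. Of 693 mature miRNAs in the RefSeq table, 5 have it, the other one being miR-322-5p. miR-195-5p is the closest to miR-16-5p: 19 of its 21 bases are identical, with G10A and U11G as the differences when positions are counted from the 5′ end and the miR-16-5p base is given first. miR-15b-5p shares 16 of 22 bases with miR-497-5p and 14 of 22 with miR-16-5p. The 2 opposite arms have different seeds from the main arms and from each other.

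In GRCr8 the miR-15b and miR-16 hairpins lie 51 bases apart on chromosome 2, within the bounds of Smc4, a condensin subunit gene. The mature miR-15b-5p spans chr2:155555197-155555218 and miR-16-5p spans chr2:155555343-155555364, both on the plus strand. The miR-497 and miR-195 hairpins lie 255 bases apart on chromosome 10, inside no other annotated gene, with miR-497-5p at chr10:55450172-55450193 and miR-195-5p at chr10:55450509-55450529 on the plus strand. The submitters' processing notes name another build, mRatBN7.2, so these positions place the genes and were not used to count reads.

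The libraries differed in depth in a way that touches every comparison with LPD. Totals ran between 132609 and 305019 counts in LPD, between 1136537 and 1668807 in EPD and between 1108167 and 1539557 in Control. The number of molecules behind a library was estimated from how many miRNAs it detected, with the mean EPD and Control profile assumed for all. The estimate gave 36.7, 49.1 and 12.3 counts per molecule in LPD, 2.00, 1.65 and 2.74 in EPD and 1.01, 2.55 and 1.103 in Control. The assumption was not tested for LPD, where 3, 9 and 39 miRNAs had 1 to 9 counts, fewer than 1 estimated molecule. Levels are given in CPM, counts scaled to a common library size. The summed level of 4 hepatocyte miRNAs was 21543 to 46856 CPM in LPD and 21043 to 56412 CPM in EPD, while in Control it was 696990 CPM in Control 2 and 29521 and 56409 CPM in the others. Control 2 was also the lowest library for miR-16-5p and the highest for miR-497-5p, and the part of this in the comparisons with Control was not tested.

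miR-16-5p dominated the family and stood above every other member in all 9 libraries. It had 323874, 310109 and 215047 CPM in LPD, 351656, 153025 and 144610 CPM in EPD, and 148552, 76911 and 158578 CPM in Control. All 3 LPD libraries lay above all 3 controls, and EPD 1 alone among the EPD libraries lay above the controls. The log2 fold change was 1.14 (SE 0.43) in LPD against Control, which missed the threshold (edgeR quasi-likelihood test, adjusted p = 0.0660). It was 0.76 (SE 0.43, adjusted p = 0.995) in EPD against Control, or 0.29 without EPD 1, and 0.39 (SE 0.42, adjusted p = 0.531) in LPD against EPD. The LPD to Control difference passed in 4 of 18 alternatives, with values between 1.07 and 1.54 and adjusted p between 0.0111 and 0.168. Among all tested miRNAs, 6.46% were higher in LPD than in Control without overlap, and 4.42% were called higher there.

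miR-16-5p made up 99.4, 99.2 and 99.1% of the counts of the 7 members in LPD, 98.4, 98.0 and 98.1% in EPD, and 98.1, 96.0 and 97.9% in Control. No 95% Wilson interval of these shares was wider than 0.307 percentage points, which covers counting error only and takes each count as independent. With an estimated 36.7, 49.1 and 12.3 counts per molecule in LPD, the intervals there are too narrow on that estimate. The 7 members together took 32.3, 33.1 and 24.8% of all counts in LPD, 31.3, 17.8 and 14.6% in EPD, and 16.8, 5.36 and 18.2% in Control. The LPD libraries lay above all controls, and EPD 1 lay within the LPD range. With 3 libraries against 3 the smallest exact two-sided permutation p is 0.1, which the LPD to Control difference of 16.6 percentage points reached (0.38 after adjustment over 38 such tests).

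**Figure D1:**
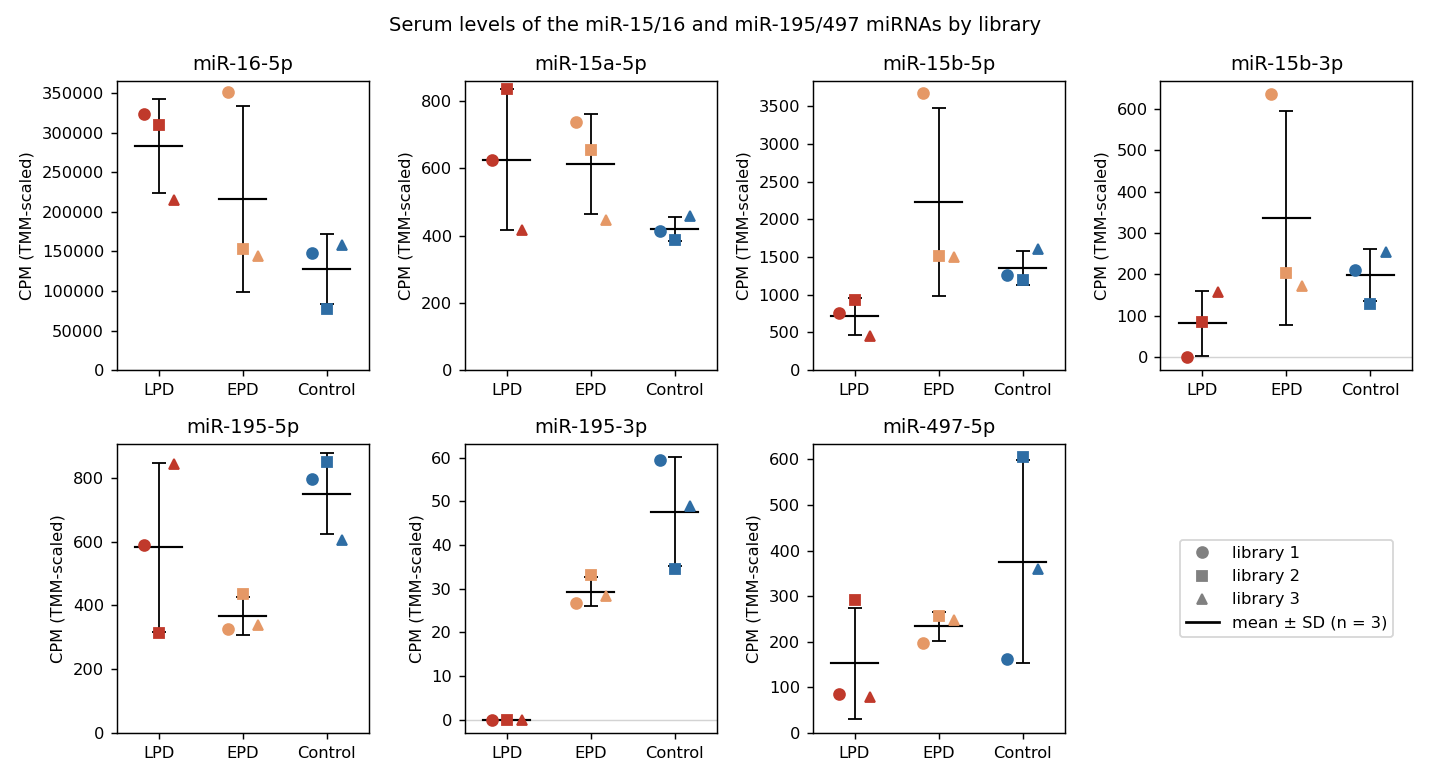
Level of each of the 7 miRNAs in each library, in CPM scaled by TMM on a linear axis, with LPD, EPD and Control from left to right, symbols for libraries 1 to 3, and the mean ± SD of 3 libraries in black. EPD 1 is the highest library for miR-16-5p (351656 CPM), miR-15b-5p (3673 CPM) and miR-15b-3p (635 CPM), and miR-195-3p is at 0 in all 3 LPD libraries.

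The members were ordered by level without a correction for length, because the mature forms with a sequence have 21 to 23 bases. In LPD miR-16-5p averaged 283010 ± 59258 CPM (SD, n = 3), followed by miR-15b-5p with 715 ± 243, miR-15a-5p with 626 ± 211 and miR-195-5p with 583 ± 265 CPM. The ranges of these last 3 overlapped in LPD. In EPD miR-15b-5p came next after miR-16-5p with 2229 ± 1251 CPM, then miR-15a-5p with 613 ± 149 and miR-195-5p with 367 ± 59.6 CPM, and none of these ranges overlapped. In Control the order after miR-16-5p was miR-15b-5p with 1355 ± 223 CPM, miR-195-5p with 751 ± 128 and miR-15a-5p with 419 ± 35.9 CPM. These ranges did not overlap, but miR-15a-5p overlapped with miR-497-5p, which had 376 ± 222 CPM in Control.

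Over all 7 members, 2 were called in LPD against EPD, both lower, and 1 in LPD against Control, also lower. In EPD against Control 0 were called. miR-195-3p, called in both LPD comparisons, had 0 counts in LPD and passed the filter on low counts through EPD and Control alone. The threshold was an edgeR adjusted p of 0.05 over all 294 miRNAs tested. Of all tested miRNAs, 36.7% were called in LPD against EPD, 37.1% in LPD against Control and 0% in EPD against Control. Lower calls alone were 32.7% in both LPD comparisons, so neither count of members is above that background. Higher calls were 4.08% in LPD against EPD, where 0 members were called higher. In EPD against Control 1 member, miR-195-5p, had an unadjusted p under 0.05, beside 3.74% of all tested miRNAs. DESeq2 called 0 members there as well, and 1 miRNA in all. Both LPD comparisons share the LPD libraries, and both comparisons with Control share the controls.

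miR-15b-5p, made from the same cluster as miR-16, was lower in the late stage than in the early stage. It had 755, 936 and 455 CPM in LPD, 3673, 1515 and 1499 CPM in EPD, and 1260, 1194 and 1610 CPM in Control. The highest LPD library was lower than the lowest library of EPD or Control. Lower levels without overlap were common among all tested miRNAs, at 45.6% in LPD against EPD, where 3 members showed them and 0 were higher (6.8% of all tested), and 41.8% in LPD against Control, where 2 did. It fell in LPD against EPD, with a log2 fold change of -1.64 (SE 0.45, edgeR adjusted p = 0.0198). Against Control the value was -0.92 (SE 0.44, adjusted p = 0.149), and EPD against Control gave 0.72 (SE 0.44, adjusted p = 0.995), or 0.22 without EPD 1. The test of all 3 groups gave an adjusted p of 0.0512.

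The call of miR-15b-5p in LPD against EPD rested partly on EPD 1, the highest library. Without EPD 1 the log2 fold change was -0.95 (adjusted p = 0.168), without LPD 3 -1.26 (0.0775) and without LPD 1 -1.52 (0.0802). The call was also lost with limma-voom with group weights (-1.51, adjusted p = 0.217), and in edgeR with only the 2 groups compared (-1.46, 0.0806). In edgeR it was lost too with only the miRNAs counted in all 9 libraries (-1.28, 0.0672) and on counts per molecule (-1.73, 0.0504). It passed in 11 of 18 alternatives, and the log2 fold change ran between -1.95 and -0.95, with adjusted p between 0.0223 and 0.217. The raw counts of miR-15b-5p in LPD were 228, 208 and 69, which stand for an estimated 6, 4 and 6 molecules. The 4 miRNAs listed for platelets summed to 66450 to 104264 CPM in LPD, 109996 to 205373 CPM in EPD and 108504 to 136482 CPM in Control. The lower sum in LPD against EPD came from miR-191a-5p, which had 6435 to 12640 CPM in LPD and 48462 to 132545 CPM in EPD and was the 1 of the 4 called lower there, with 0 called higher. miR-223-3p had 35997 to 61446 CPM in LPD and 32641 to 49305 CPM in EPD, and miR-126a-3p had 9757 to 19864 CPM in LPD and 8691 to 14809 CPM in EPD, with higher means in LPD for both. The median log2 fold change of the 4 in LPD against EPD was 0.12. In LPD against Control 1 of the 4 was called higher (miR-223-3p) and 2 lower (miR-199a-3p and miR-191a-5p). The part of platelet RNA in the miR-15b-5p result was not tested.

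**Figure D2:**
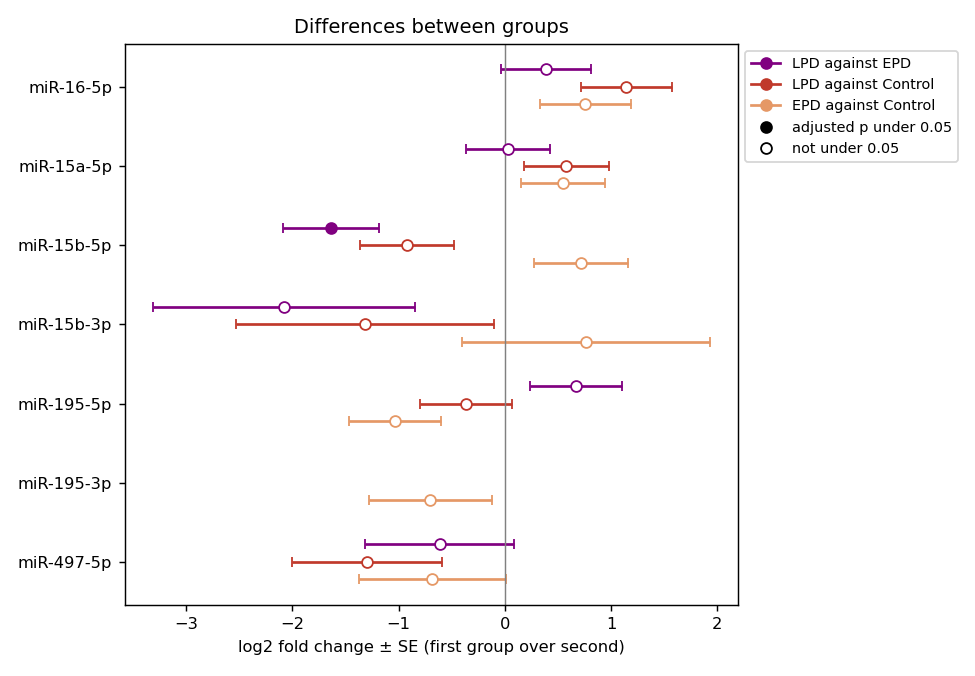
Log2 fold change ± SE of each member in the 3 comparisons, on a linear axis, the first group over the second, with filled points where the edgeR adjusted p was under 0.05. miR-15b-5p in LPD against EPD is the only filled point (-1.64), and miR-195-3p is drawn only for EPD against Control because it had no count in LPD.

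miR-15b-3p, the opposite arm of the same hairpin, had 0, 85.5 and 158 CPM in LPD, 635, 203 and 173 CPM in EPD, and 211, 129 and 254 CPM in Control. The LPD libraries lay below all EPD libraries and overlapped with Control. In LPD 1, 2 and 3, however, 3 estimated molecules stand for 365, 662 and 244 CPM, above the levels in EPD 2 and EPD 3. Without EPD 1 the log2 fold change in EPD against Control, 0.77 (SE 1.17, adjusted p = 0.995), was -0.0015. The log2 fold change was -2.08 (SE 1.24, adjusted p = 0.237) in LPD against EPD and -1.31 (SE 1.21, adjusted p = 0.437) in LPD against Control. Without EPD 1 the value in LPD against EPD was -1.16, and without LPD 1 the value in LPD against Control was -0.56. Both arms of miR-15b were highest in EPD 1. The 5p arm had 5.78, 7.48 and 8.68 times the counts of the 3p arm in EPD, against 5.97, 9.26 and 6.34 times in Control. In LPD the 3p arm had 0, 19 and 24 counts, which stand for an estimated 0, 0 and 2 molecules. The arm ratio was 10.9 in LPD 2 and 2.88 in LPD 3, so it rests on few molecules.

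miR-15a-5p, which in human and mouse is made together with another copy of miR-16, had 626, 837 and 415 CPM in LPD, 737, 655 and 447 CPM in EPD, and 414, 386 and 457 CPM in Control. The groups overlapped in each comparison. Its log2 fold change was 0.58 (SE 0.40, adjusted p = 0.307) in LPD against Control, 0.55 (SE 0.40, adjusted p = 0.995) in EPD against Control and 0.03 (SE 0.40, adjusted p = 0.960) in LPD against EPD.

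The ratio of miR-16-5p to miR-15b-5p within a library does not depend on the scaling between libraries. miR-16-5p had 429, 331 and 473 times the counts of miR-15b-5p in LPD, 95.7, 101 and 96.5 times in EPD, and 118, 64.4 and 98.5 times in Control. The LPD libraries stood apart from the other 6, while the 3 EPD libraries lay within the Control range although their miR-16-5p levels differed. An estimated 6, 4 and 6 molecules stood behind miR-15b-5p in LPD, so this ratio rests on few molecules there. The mean log2 ratio was 8.66 ± 0.26 in LPD and 6.61 ± 0.04 in EPD, a difference of 2.05 or 4.14-fold. Control had 6.50 ± 0.45, and LPD differed from it by 2.16 or 4.46-fold (SD, n = 3 in each group). Each difference had an exact two-sided permutation p of 0.1, the smallest that 3 against 3 libraries can give (0.38 adjusted over 38 tests).

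The 2 relatives of miR-16 also parted from each other. miR-15b-5p had 1.21, 1.12 and 1.095 times the counts of miR-15a-5p in LPD, 4.99, 2.31 and 3.35 times in EPD, and 3.04, 3.096 and 3.52 times in Control. The 3 LPD libraries held nearly equal counts of both, and the lowest ratio in any other library was 2.31. The difference in log2 ratio was -1.57 in LPD minus EPD and -1.50 in LPD minus Control (exact permutation p = 0.1 each, 0.38 adjusted). In LPD an estimated 5, 4 and 5 molecules stood behind miR-15a-5p, so both sides of this ratio rest on few molecules.

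The ratio of miR-16-5p to miR-15a-5p differed less. miR-16-5p had 517, 371 and 518 times the counts of miR-15a-5p in LPD, 477, 234 and 323 times in EPD, and 358, 199 and 347 times in Control. The LPD libraries lay above the controls, by 0.66 on the log2 scale (exact permutation p = 0.1, 0.38 adjusted), and overlapped with EPD. Groups did not overlap in 3 of 6 ratio tests of LPD against Control, 2 of 6 of LPD against EPD and 1 of 8 of EPD against Control. These ratios share members, so they are not separate results, and no background over other pairs of miRNAs was computed.

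**Figure D3:**
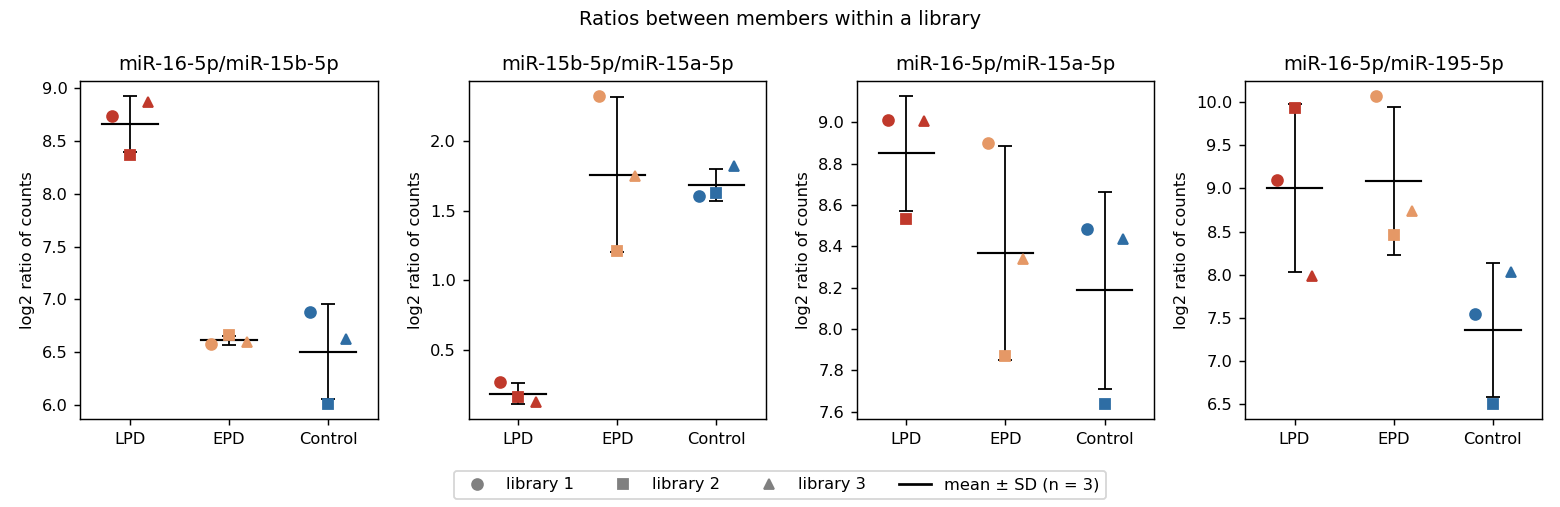
Log2 ratio of raw counts of 2 members within each library, with a prior of 0.5 counts, for LPD, EPD and Control from left to right, with the mean ± SD of 3 libraries in black. The axes do not start at 0. The ratio miR-16-5p/miR-15b-5p sits at a mean of 8.66 in LPD, 6.61 in EPD and 6.50 in Control, and the ratio miR-15b-5p/miR-15a-5p at 0.19 in LPD, 1.76 in EPD and 1.68 in Control.

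miR-195-5p, the member closest in sequence to miR-16-5p, had its lowest mean in the early stage. It had 590, 315 and 844 CPM in LPD, 327, 435 and 338 CPM in EPD, and 797, 850 and 607 CPM in Control. All 3 EPD libraries lay below all 3 controls, while the LPD libraries spread over both groups. In LPD an estimated 5, 1 and 10 molecules stood behind miR-195-5p, so its levels there rest on few molecules. The log2 fold change in EPD against Control was -1.03 (SE 0.43, unadjusted p = 0.0402 by edgeR), which did not pass over all miRNAs (adjusted p = 0.995). It ran between -1.17 and -0.81 in the 18 alternatives and passed in none. Of all tested miRNAs, 8.16% were lower in EPD than in Control without overlap and 4.76% were higher, beside 2 and 0 of the 7 members. LPD against Control gave -0.37 (SE 0.43, adjusted p = 0.548) and LPD against EPD 0.67 (SE 0.43, adjusted p = 0.275). The summed level of miR-143-3p and miR-145-5p, miRNAs of smooth muscle in the vessel wall, was 31521 to 40844 CPM in LPD, 17536 to 24446 CPM in EPD and 26536 to 54770 CPM in Control, and the EPD sums lay below all controls. This sum was mostly miR-143-3p, whereas miR-145-5p had 1865, 1795 and 2019 CPM in EPD, against 1235, 5981 and 1411 CPM in Control, and overlapped. The 3 listed muscle miRNAs summed to 715 to 10714 CPM in LPD, 316 to 4933 CPM in EPD and 1408 to 7637 CPM in Control, which overlapped. The part of either list in the miR-195-5p values was not tested. With DESeq2 alone LPD against EPD passed (0.90, adjusted p = 0.0366).

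Despite the near identity of their sequences, miR-16-5p and miR-195-5p did not keep 1 ratio. miR-16-5p had 549, 985 and 255 times the counts of miR-195-5p in LPD, 1074, 352 and 428 times in EPD, and 186, 90.5 and 261 times in Control. The LPD ratios rest on an estimated 5, 1 and 10 molecules of miR-195-5p. The EPD libraries lay above all controls, by 1.73 on the log2 scale (exact permutation p = 0.1, 0.38 adjusted), and LPD overlapped with both. How reads that match both miRNAs were assigned is not given in the sources used here.

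miR-195-3p, the opposite arm, was the lowest member. It had 0 counts in all 3 LPD libraries, 26.6, 33.1 and 28.3 CPM in EPD, and 59.4, 34.5 and 49.1 CPM in Control. All EPD libraries lay below all controls, with a log2 fold change of -0.70 (SE 0.58, adjusted p = 0.995). It was called lower in LPD against Control (edgeR adjusted p = 0.00522) and against EPD (adjusted p = 0.00576), and no fold is given against a group at 0. A count of 0 allows up to 3 counts, or 9.94, 13.5 and 19.8 CPM in the LPD libraries. There 3 estimated molecules stand for 365, 662 and 244 CPM, above every level of miR-195-3p in EPD and Control, so on that estimate a difference could not be detected. The estimate assumes that LPD has the mean EPD and Control profile. On counts per molecule the call was lost in both comparisons (adjusted p = 0.310 against Control and 0.454 against EPD).

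miR-497-5p, encoded beside miR-195, had 86.1, 292 and 79.1 CPM in LPD, 198, 257 and 247 CPM in EPD, and 162, 606 and 360 CPM in Control. The groups overlapped in each comparison, and Control 2 was the highest library. The log2 fold change was -1.30 (SE 0.71, adjusted p = 0.195) in LPD against Control, -0.68 (SE 0.69, adjusted p = 0.995) in EPD against Control and -0.61 (SE 0.70, adjusted p = 0.546) in LPD against EPD. Single libraries decided these values. The log2 fold change in LPD against Control was -2.17 without LPD 2 (adjusted p = 0.0460), -0.72 without LPD 1 (0.458), -0.70 without LPD 3 (0.470) and -0.51 without Control 2 (0.691). Without Control 2 the value in EPD against Control was -0.056 (adjusted p = 0.988). In LPD against EPD it was -1.56 without LPD 2, -0.11 without LPD 1 and -0.091 without LPD 3. An estimated 1 molecule stood behind it in each LPD library. Although the hairpins are neighbours, the ratio of miR-195-5p to miR-497-5p ran between 1.08 and 10.7 in LPD, between 1.37 and 1.70 in EPD and between 1.40 and 4.92 in Control, with no difference between groups that passed (exact permutation p = 0.5 against Control for LPD and for EPD, 0.4 for LPD against EPD).

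The 5 members with counts in all 9 libraries had a median log2 fold change of -0.37 in LPD against Control, 0.03 in LPD against EPD and 0.55 in EPD against Control. The 124 miRNAs with counts in all 9 libraries had medians of -0.21, -0.09 and 0.01 in the same comparisons, and all 294 tested miRNAs had -1.04, -0.92 and -0.05.

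Of the red cell miRNAs, miR-486 and miR-144-3p were high in the same libraries as miR-16-5p, and the others followed less closely. Of 7 listed erythrocyte miRNAs (miR-16 not among them) 5 were measured, and their summed level was 49094, 53129 and 21097 CPM in LPD, 43273, 10458 and 8656 CPM in EPD, and 10331, 7717 and 10802 CPM in Control. Nearly all of this sum was miR-486, with 47260, 51689 and 18948 CPM in LPD, 39743, 9371 and 8096 CPM in EPD, and 9472, 7068 and 9529 CPM in Control. EPD 1 and the 3 LPD libraries stood above the other 5, and miR-16-5p was highest in these 4 libraries too. EPD 1 was also the library highest in both miR-15b arms. In LPD against Control 1 of the 5 was called, miR-486 (higher, 2.18, SE 0.65, adjusted p = 0.0264), and the median of the 5 was 0.86. miR-144-3p had 374, 585 and 297 CPM in LPD, 221, 90.9 and 43.3 CPM in EPD, and 43.2, 66.4 and 148 CPM in Control. Its LPD libraries lay above all EPD and Control libraries. In LPD 1, 2 and 3, 3 estimated molecules stand for 365, 662 and 244 CPM, so these levels of miR-144-3p rest on few molecules. The log2 fold change of miR-144-3p was 2.28 (SE 0.80, edgeR adjusted p = 0.0511) in LPD against Control and 1.82 (SE 0.79, adjusted p = 0.107) in LPD against EPD. miR-363-3p was at 0 in LPD 1 and LPD 2, and the other 4 had counts in all 9 libraries. Every EPD and Control level of miR-363-3p lay below what 3 estimated molecules stand for in LPD. miR-451-5p, with 1126, 756 and 1530 CPM in LPD, 2916, 787 and 414 CPM in EPD, and 616, 466 and 799 CPM in Control, overlapped between the groups, as did miR-144-5p. The log2 fold change of miR-363-3p in LPD against Control was -1.01 (SE 1.47, adjusted p = 0.631). The ratio of miR-16-5p to miR-451-5p, the erythroid miRNA used to gauge haemolysis, overlapped between the groups in each comparison (exact permutation p = 0.5 for LPD against Control, 0.7 for LPD against EPD and 1 for EPD against Control). The part of red cell RNA in the differences was not tested.

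Likeness over the 9 libraries was measured by Pearson's r of log2 CPM against 122 other miRNAs with counts in all 9 and at least 50 CPM on average. It is a description, since libraries of 1 group and of equal depth share more than their treatment. miR-16-5p was most like miR-486 (r = 0.93), miR-144-3p (0.79) and miR-92a-3p (0.78). miR-15a-5p was most like miR-486 (0.77), miR-16-5p (0.76) and let-7b-5p (0.74). miR-15b-5p was most like miR-93-5p (0.95), let-7i-5p (0.91) and miR-25-3p (0.91), and miR-16-5p came at rank 67 of 122 for it (r = 0.01). miR-195-5p was most like miR-425-5p (0.75), miR-22-3p (0.73) and miR-3559-5p (0.65), with miR-497-5p at rank 84 (r = -0.15). miR-497-5p was most like miR-339-5p (0.75), miR-185-5p (0.72) and the smooth muscle miRNA miR-145-5p (0.69).

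**Figure D4:**
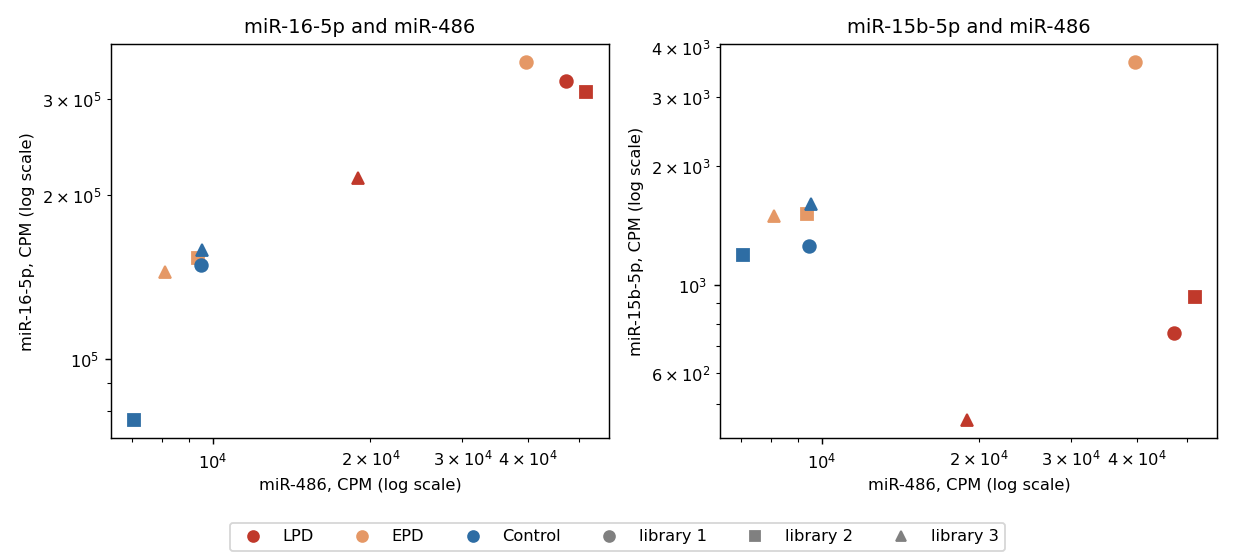
Level of miR-16-5p (left) and miR-15b-5p (right) against the red cell miRNA miR-486 in each of the 9 libraries, in CPM on log axes. miR-16-5p is highest in the 4 libraries with the most miR-486, EPD 1 and LPD 1 to 3, whereas among these 4 miR-15b-5p is at 3673 CPM in EPD 1 and at 455 to 936 CPM in LPD.

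The other arms and seed relatives were 9 further miRNAs listed from general knowledge of the family. The filter left 6 of them, of which 0 were called in EPD against Control, 2 in LPD against Control and 2 in LPD against EPD, all lower. Beside the 32.7% of all tested miRNAs called lower in each LPD comparison, 2 of 6 is near the background. The 2 were miR-322-3p and miR-503-3p, opposite arms from a cluster on chromosome X, with 0 counts in LPD for the first and 1 count in LPD 2 for the second. miR-322-5p, which has the same seed as miR-16, had 861, 639 and 310 CPM in LPD, 543, 972 and 954 CPM in EPD, and 931, 741 and 1221 CPM in Control (log2 fold change in LPD against Control -0.67, SE 0.45, adjusted p = 0.300). miR-103-3p and miR-107-3p, whose seed is shifted by 1 base, had -0.49 (SE 0.27, adjusted p = 0.209) and -0.62 (SE 0.46, adjusted p = 0.341) in the same comparison. The opposite arms miR-15a-3p, miR-16-3p and miR-497-3p had at most 16 counts in a library, and 0 in every LPD library.

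**Figure D5:**
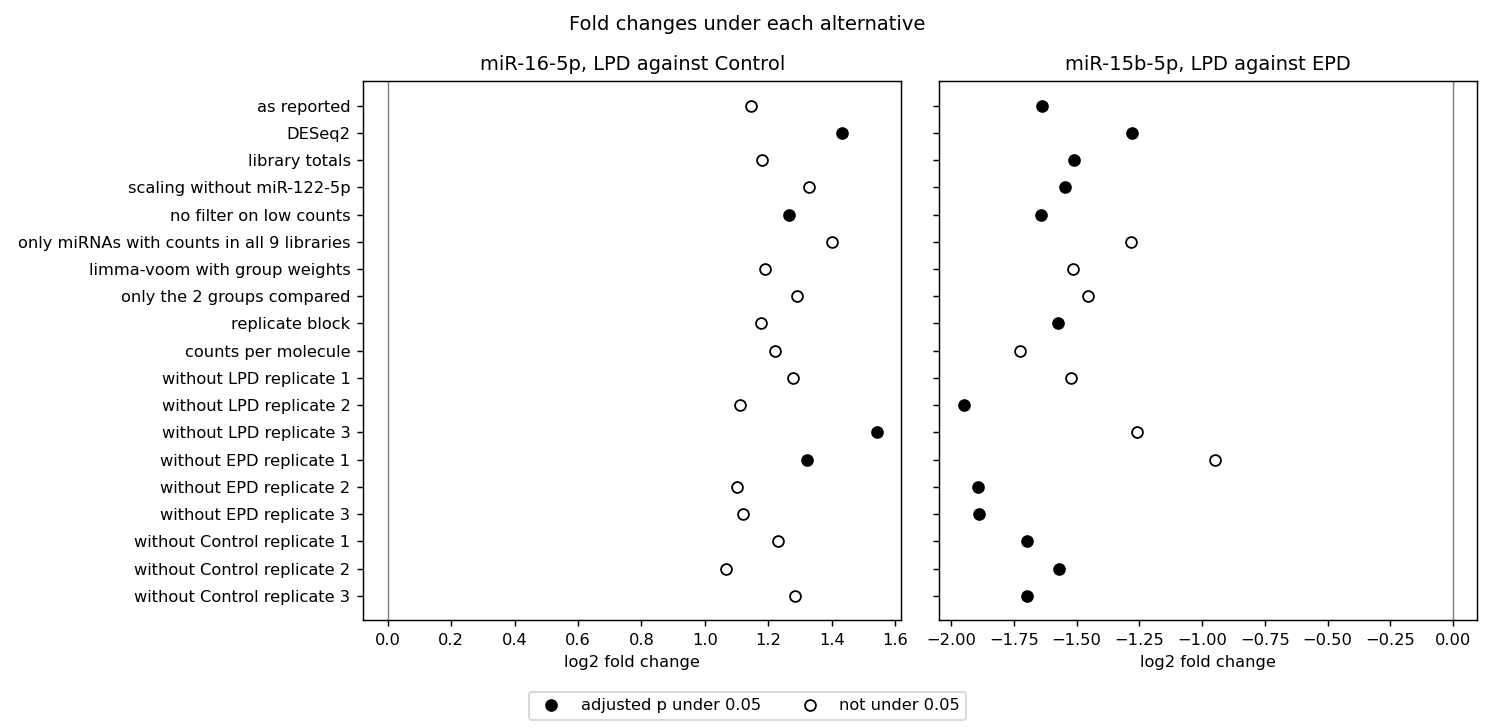
Log2 fold change of miR-16-5p in LPD against Control (left) and of miR-15b-5p in LPD against EPD (right), as reported and under each of 18 alternatives, with filled points where the adjusted p was under 0.05. miR-16-5p stays between 1.07 and 1.54 and passes in 4 alternatives, and miR-15b-5p stays between -1.95 and -0.95 and passes in 11.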

How the data were processed

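The deposited values are whole-number counts per mature miRNA, not normalized, and 0 values of the matrix differed from the single-library tables. Per the labels' protocols, serum RNA was extracted with a miRNeasy kit and sequenced from QIAseq small RNA libraries. The submitters' processing notes name mRatBN7.2. Aligner, counter, miRNA annotation and any use of molecular identifiers: not given in the sources used here, so whether they count reads or molecules is unknown. Intervals cover counting error only, with each count taken as independent. From 567 miRNAs, filterByExpr (at least 10 counts, at least 15 in total) kept 294. CPM were computed from TMM-scaled counts. edgeR 4.0.16 (robust quasi-likelihood, R 4.3.3) fitted all 9 libraries in 3 groups without covariates, with Benjamini-Hochberg adjustment over all tested miRNAs, and each SE was the log2 fold change over the root of its F statistic. The p-values measure only the spread between these libraries, which may be technical. Replicates differed by more than sampling noise (lowest chi-square 31.2 per degree of freedom) and none was counted as a repeat. Log2 CPM of LPD libraries correlated by 0.78 to 0.84, against 0.96 to 0.98 in EPD and 0.92 to 0.99 in Control, while the fit shares 1 spread. Molecules were estimated as the number at which a Poisson draw from the mean EPD and Control profile detects as many miRNAs as the library did. Shares and log2 ratios (prior of 0.5 counts) went through exact permutation tests, two-sided (scipy 1.17.1), 38 in all, leaving out ratios and shares of the 3p arms with a count of 0. The fit was tested on simulated counts with 1 spread for all groups, so that test does not cover the weaker correlation among the LPD libraries. Alternatives included DESeq2 1.42.0 and limma 3.58.1. Named are all 7 members, their 9 relatives and the 3 miRNAs most alike to each member. Members and lists were chosen with earlier results of these data known.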

Additional observations from a re-analysis of the deposited data

How the results depend on the processing

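The LPD libraries set the limits: few estimated molecules stand behind each member other than miR-16-5p there. In EPD against Control 1 miRNA was called in all with DESeq2, with the miRNAs counted in all 9 libraries, and with limma-voom with group weights (0 to 1 when a library was left out), and 0 members. In LPD against Control the members called were 2 with DESeq2, 2 with no filter and 0 on counts per molecule. When a library was left out 1 to 2 were called (2 without LPD 2, LPD 3 or EPD 1). With the miRNAs counted in all 9 libraries 0 were called, but miR-195-3p, at 0 counts in LPD, was not in that set. All miRNAs called in LPD against Control were 38 with the miRNAs counted in all 9, 52 with only the 2 groups compared and 31 on counts per molecule. They were 93 to 140 when a library was left out, against 109 as reported. With the miRNAs counted in all 9, 124 were tested, against 294 as reported, so 38 and 109 come from sets of unlike size. In LPD against EPD the members called were 1 with limma-voom, 1 with only the 2 groups and 0 on counts per molecule. When a library was left out 1 to 2 were called (1 without LPD 1, LPD 3 or EPD 1). With the miRNAs counted in all 9, again without miR-195-3p, 0 were called. All miRNAs called in LPD against EPD were 35, 67 and 29 in the same 3 settings and 90 to 134 when a library was left out, against 108. The 35 came from 124 miRNAs tested and the 108 from 294. DESeq2 moved the median of all miRNAs by 0.21 in LPD against Control and 0.28 in LPD against EPD, and library totals by 0.18 in LPD against Control. DESeq2 called 31 higher and 91 lower in LPD against EPD, against 12 higher and 96 lower, and 26 higher and 94 lower in LPD against Control. Leaving out a library turned these directions: miR-15b-3p in EPD against Control (-0.0015 to 1.09) and miR-15a-5p in LPD against EPD (-0.30 to 0.41, and -0.045 on counts per molecule). The 3-group adjusted p of miR-15b-5p ran between 0.0457 without EPD 3 and 0.284. Log2 ratios that changed sign when a library was left out were, in EPD against Control, miR-16-5p to miR-15a-5p (-0.093 to 0.43), miR-16-5p to miR-15b-5p (-0.14 to 0.30), miR-15b-5p to miR-15a-5p (-0.21 to 0.35), miR-195-5p to miR-497-5p (-0.88 to 0.024), the miR-15b arms (-0.10 to 0.23) and miR-16-5p to miR-451-5p (-0.38 to 0.39). In LPD against EPD they were miR-16-5p to miR-195-5p (-0.55 to 0.43) and miR-16-5p to miR-451-5p (-0.034 to 0.77). The share of miR-15a-5p in LPD minus EPD ran between -0.00653 and 0.0140 percentage points, and that of miR-195-5p in LPD minus Control between -0.0253 and 0.00631. The cause of these changes was not tested. The ratio of miR-16-5p to miR-15b-5p stayed between 1.94 and 2.20 in LPD minus EPD and between 1.91 and 2.35 in LPD minus Control when a library was left out. Libraries share replicate numbers, but deviations of same-numbered libraries correlated by -0.0959 to 0.0826, so the numbers are not taken as pairs. With the replicate block, miR-15b-5p in LPD against EPD was -1.57 (edgeR adjusted p = 0.0392), miR-16-5p in LPD against Control 1.18 (0.0545), and 0, 1 and 2 members were called in EPD against Control, LPD against Control and LPD against EPD, with 0, 101 and 101 miRNAs in all.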
